A study of Schizosaccharomyces pombe with 2 samples.

Results

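The genes described here are those that the deposited tables of fission yeast poly(A) sites list under a systematic name only, with no standard gene name. They were found as the entries on chromosomes I to III with an empty standard name, leaving out tRNA genes and 3 entries that the rule excludes. This gave 903 unnamed genes of 5289 entries in all, and they were set against 4241 genes with a standard name. Another 124 tRNA entries and 18 entries off chromosomes I to III were not compared. The data came from replicates A and B, 2 libraries of wild-type Schizosaccharomyces pombe (strain label FWP9) grown exponentially at 30 °C in YPD, a rich medium. The ends of polyadenylated RNA were mapped by 3' READS, a sequencing method whose reads each stop at the base where an RNA was cut before its poly(A) tail was added. Both libraries belong to a single group, so no conditions were compared and the contrasts are between genes, which are not replicates. The labels give no genotype beyond wild type and leave unsaid if A and B were grown as separate cultures, so the spread between them may be technical.

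A eukaryotic mRNA gets its 3' end when a cleavage and polyadenylation complex reads signals in the nascent RNA, cuts it a short way downstream of an adenine-rich element and adds the poly(A) tail. Many yeast genes use several nearby cleavage sites, so the length of the 3' untranslated region (UTR) differs between transcripts of the same gene. Fission yeast genes carry a systematic name from the clone that was sequenced, and a standard name is added as a gene is characterised or matched to a known relative. Genes without a standard name are therefore known mostly from sequence, among them predicted enzymes, predicted transporters and proteins of unknown function.

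In RefSeq, 878 of the 903 unnamed genes were protein-coding with the same stop codon, 23 were pseudogenes and 2 had no entry. By chromosome, 430 lay on I, 289 on II and 184 on III. The RefSeq annotation now gives a symbol to 26 of them, for example rpf1, hom3 and hsp20. Unnamed coding genes were shorter than named ones, with a median coding length of 886.5 nt against 1191 nt, and 34.2% had more than 1 exon, against 49.4%. The stop codon lay within 100 kb of a chromosome end for 114 unnamed genes (12.6%), against 87 named genes (2.05%). No 3' UTR was annotated for 117 of the 878 unnamed coding genes (13.3%), against 265 of 4232 named ones (6.26%).

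The sequences at the poly(A) sites are shown for the unnamed genes that stand at the extremes of the data. Each is the 30 bases of the gene's strand that end at the most used site, over the reads of both replicates, in RefSeq build ASM294v3, whose stop codons were equal to those of the deposited tables for 5113 of 5113 coding genes. Capitals mark AATAAA, the canonical poly(A) signal, or where it is missing the nearest to 20 bases from the site among its 18 single-base variants, searched on the gene's strand with overlaps allowed. The 6 unnamed genes with the most reads had these windows:
SPCC24B10.18 (chrIII:932794-932823, plus strand): gattattattTATAAAttaattttgttggg
SPAC4H3.01 (chrI:3824418-3824447, plus strand): tattgcaAATAATatgcttattcttatttt
SPAC694.04c (chrI:4206688-4206717, minus strand): tgtacaaatcAATATAcataatgcaatggg
SPBC1105.01 (chrII:3505576-3505605, plus strand): ttAAGAAAaatcactggttacaaggggttt
SPBC16H5.12c (chrII:2276962-2276991, plus strand): ttgtttagaaatAATAAAgtgatttttgac
SPBC2A9.02 (chrII:2949763-2949792, plus strand): atagatgaattattatccatttgaaacatt
The 4 genes with the lowest mean position among measured unnamed genes whose replicates differed by at most 10 nt are shown because their windows lie across or directly after the stop codon:
SPBC1778.07 (chrII:3111183-3111212, plus strand): aattacgatttcAATAAAaatttttgaacc
SPBC19C7.11 (chrII:2845576-2845605, plus strand): atGATAAAatgtaatagtttcattgaaggg
SPBC1711.15c (chrII:2162078-2162107, minus strand): caatagccagtactcgctttttcgttgttg
SPAC29B12.13 (chrI:5439458-5439487, plus strand): AATAAGatgattgaaaattttatccgttgc
The 4 genes with the highest mean position, under the same limit on replicates, had these windows:
SPCC24B10.06 (chrIII:911605-911634, plus strand): atcagtttcAACAAAtttcgttcttttcat
SPAC27F1.10 (chrI:4326109-4326138, minus strand): aggAATGAAatttcaatttctatctctagg
SPCC338.06c (chrIII:1365994-1366023, plus strand): aAATAAAatattggcaagttttacgttatc
SPAC25B8.12c (chrI:4176631-4176660, minus strand): cagcggcgatacttgtgttttattctcatt
Of these 14 windows, 11 held AATAAA or a variant and 3 of those held AATAAA itself. The marked letters of SPBC1778.07, SPBC19C7.11 and SPAC29B12.13 include bases of the stop codon.

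Across the measured unnamed genes, those with at least 50 reads in each replicate, 349 of 533 windows (65.5%) held AATAAA or a single-base variant, against 2190 of 3290 windows of measured named genes (66.6%). AATAAA itself was present in 97 unnamed windows (18.2%), against 606 named ones (18.4%). Of all 1907682 windows of 30 bases across the 400 nt downstream of the stop codons of the genes compared, 33.6% held AATAAA or a variant and 4.38% held AATAAA. The median share of A and T was 76.7% at the sites of unnamed and of named genes alike. The windows at the sites of unnamed genes thus held these letters about as often as those of named genes, and more often than windows at large.

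Unnamed genes had fewer reads. The median number of reads in the window, the 400 nt downstream of the stop codon, was 136 in replicate A and 116 in replicate B for unnamed genes, against 426 and 346 for named genes, a ratio of 0.327 ± 0.0113 (SD, n = 2). Together the unnamed genes held 965054 reads in A (1.89% of 50977367 window reads) and 997885 in B (1.82% of 54749219). Of the 903 unnamed genes, 36 in A and 35 in B had at least 5000 reads, and another 112 and 108 had at least 1000. Counted in each replicate by itself, 127 genes in A and 127 in B had none. At least 50 reads were found for 64.2% of unnamed genes in A and 62.0% in B, against 81.8% and 79.8% of named genes. The difference of -17.7 ± 0.166 percentage points (SD, n = 2) was far larger than the spread between replicates. In both replicates together, 533 unnamed genes (59.0%) passed this minimum, against 3290 named genes (77.6%), where 74.3% of all 5144 genes passed. The ratio of medians was 0.354 when the named genes were taken without the 141 genes of cytosolic ribosomal proteins, and 0.473 over genes with reads in both replicates.

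**Figure D1:**
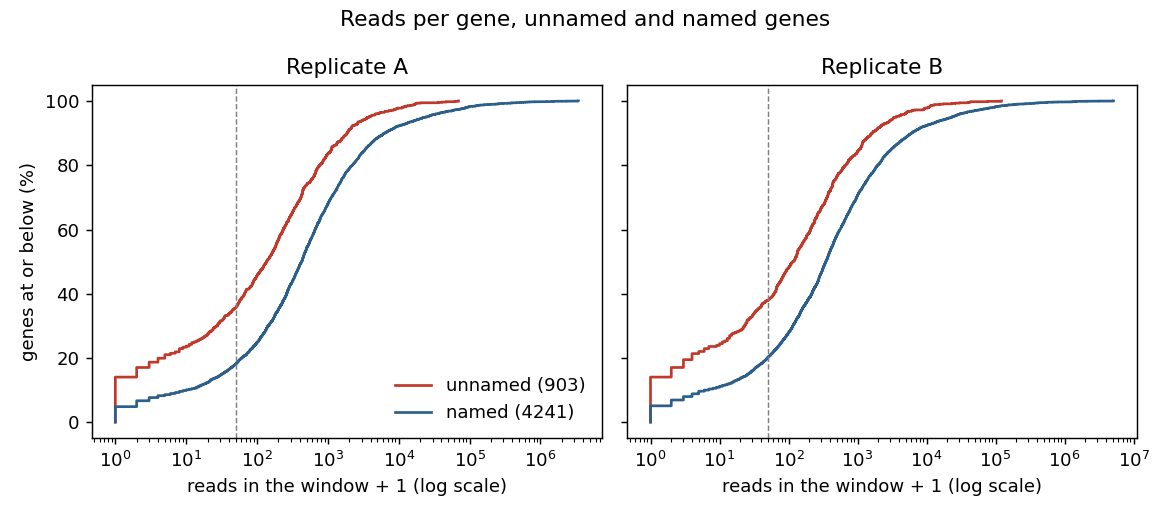
Cumulative share of genes (vertical axis, %) with at most the number of reads on the horizontal axis (reads in the window + 1, log scale), in replicates A and B, for 903 unnamed and 4241 named genes. The dashed line marks 50 reads, and the curve of the unnamed genes lies above that of the named ones there, as 64.2% and 62.0% of unnamed genes reached it, against 81.8% and 79.8% of named genes.

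The minimum kept genes of modest depth. Just inside it was SPAC4G8.09, with 223 reads in A and 50 in B, and just outside it was SPBC685.03, with 50 and 49 reads. Besides the 533 measured genes, 281 unnamed genes had reads but fewer than 50 in a replicate. No read in either replicate was found for 89 unnamed genes (9.86%), against 114 named genes (2.69%), where 3.95% of all genes had none. A count of 0 allows up to 3 reads, out of 50977367 in A and 54749219 in B, by counting error only.

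The unnamed genes without reads were concentrated near chromosome ends and in repeated sequence. Within 100 kb of an end, 53 of 114 unnamed genes had no read and 24 were measured, and the median was 0 reads in either replicate. Elsewhere, 36 of 789 had no read and 509 (64.5%) were measured, with medians of 180 and 145 reads. Named genes within 100 kb of an end had medians of 102 and 124 reads, with 13 of 87 at no read. More than 50% of the 30-base runs of the window occurred again on chromosomes I to III for 42 of the 89 unnamed genes without reads, for 5 of the 281 with few reads and for 0 of the 533 measured genes. Named genes showed much the same pattern, with 41 of 114 without reads (36.0%, against 47.2% of unnamed genes), 2 of 837 with few reads and 0 of 3290 measured. Of the 47 unnamed genes with such a window, 46 lay within 100 kb of an end, against only 12 of 43 named genes. A coding sequence identical to that of another gene was found for 17 unnamed genes, 16 of which had no read, against 21 named genes, 18 of which had none. The 30 bases at the most used site were never found a second time among the 814 unnamed genes with reads. The same held for the 4127 named genes with reads. How reads with several matches were treated is not given in the sources used here. A missing transcript and reads that were not placed therefore cannot be told apart for the genes without reads. Over genes more than 100 kb from an end and without a mostly repeated window, a comparison chosen after seeing the data, 788 unnamed genes were left and the ratio of median reads was 0.407.

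The 6 unnamed genes with the most reads held 28.3% of all reads of unnamed genes in A and 35.7% in B. SPCC24B10.18, an uncharacterized protein gene of 282 nt coding length on chromosome III, had 69956 reads in A and 122301 in B. Its most used site lay 185 nt after the stop codon in both replicates and took 42.9% and 48.2% of the reads. SPAC4H3.01, which encodes a DNAJ-domain protein, a type of co-chaperone of Hsp70 chaperones, had 62285 and 77218 reads. A single position 167 nt after the stop codon held 93.3% and 92.4% of them, so that its profile had 1.43 and 1.47 effective sites. This number, computed as exp of the profile's Shannon entropy, is 1 when all reads share a position and grows as they spread. SPAC694.04c, also uncharacterized, had 46591 and 44059 reads, with its most used site at 107 nt taking 42.7% and 35.4%.

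Next came SPBC1105.01, annotated as similar to Rrp12, a factor of ribosome assembly in budding yeast. It had 40500 and 40436 reads spread over 9.79 and 9.59 effective sites, and its most used site at 100 nt held only 23.6% and 24.5%. SPBC16H5.12c, uncharacterized, had 35974 and 41644 reads, and its most used site changed between neighbours, 284 nt in A and 287 nt in B. SPBC2A9.02, a member of the NAD-dependent epimerase/dehydratase family of sugar nucleotide enzymes, had 17784 and 30160 reads, with 69.8% and 74.7% at 257 nt. Its annotated 3' end lies 853 nt after the stop codon, outside the measured window. The mean positions of these 6 genes differed by at most 0.939 nt between replicates, while their number of sites ranged from 1.45 to 9.69.

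**Figure D2:**
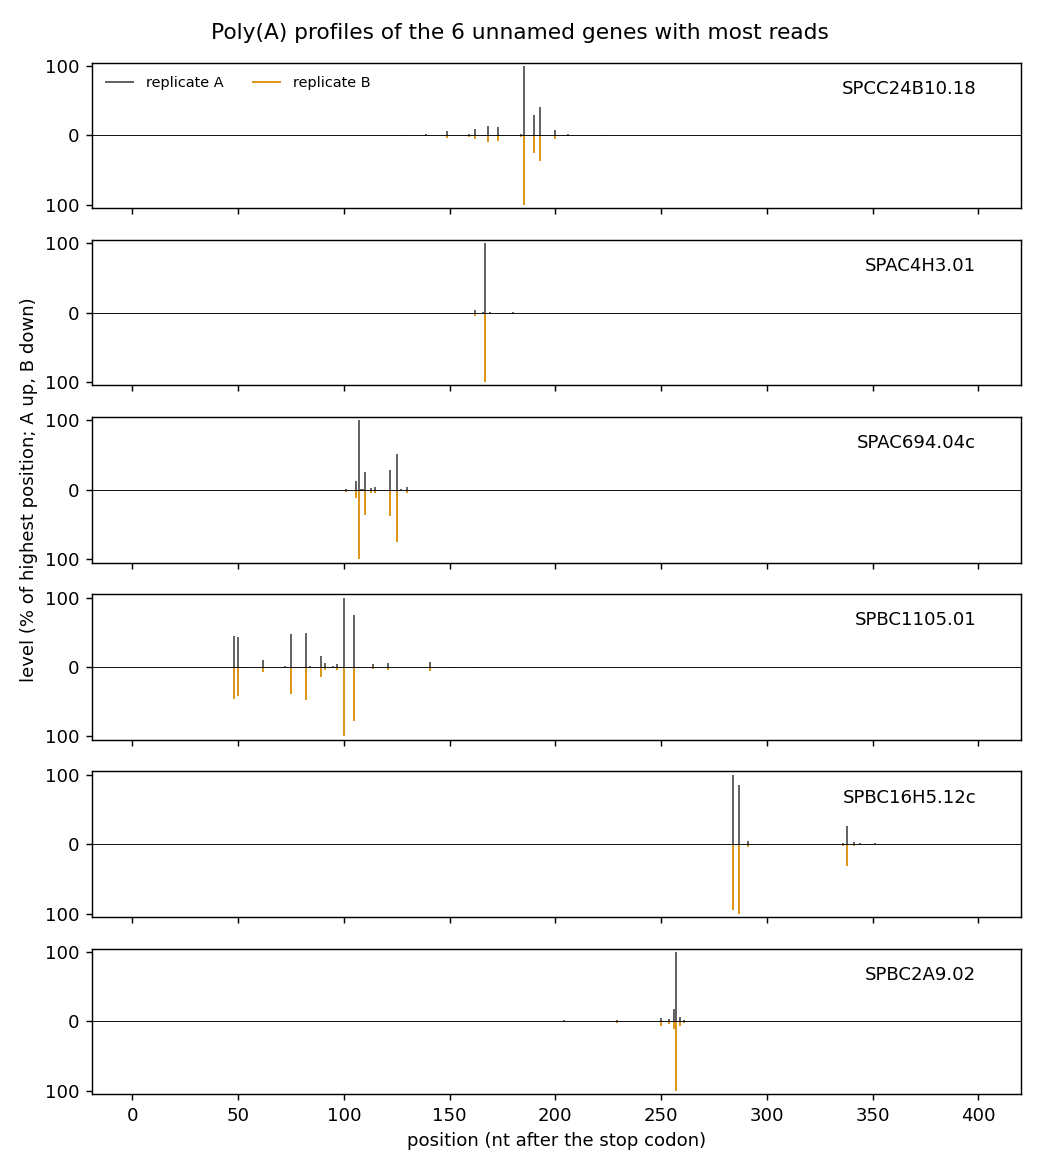
Poly(A) profiles of the 6 unnamed genes with the most reads, as the level at each position in % of the highest position (vertical axis, replicate A upward, replicate B downward) against the distance after the stop codon in nt. SPAC4H3.01 has a lone peak at 167 nt, SPBC1105.01 has several peaks of similar height, and each gene has nearly the same profile in both replicates.

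Transcripts of unnamed genes ended slightly farther from the stop codon. The median of the read-weighted mean position was 152 nt in A and 154 nt in B over the 533 measured unnamed genes, against 142 and 140.4 nt over the 3290 measured named genes, a difference of 12.0 ± 2.57 nt (SD, n = 2). Both sets were broad, with middle 50% ranges of 94.5 to 229 nt in A and 90.6 to 227 nt in B for unnamed genes, against 85.7 to 225 nt and 85.5 to 223 nt for named genes. The shift of the medians was therefore small beside the spread among genes. The most used position gave medians of 147 and 151 nt for unnamed genes, against 137 and 137.5 nt for named genes. A mean position within 100 nt in both replicates was found for 137 unnamed genes (25.7%), against 976 named genes (29.7%), where 29.1% of all measured genes had one. Past 300 nt in both replicates lay 36 unnamed genes (6.75%), against 270 named genes (8.21%), beside 8.0% of all. Both shares of unnamed genes were slightly below those of all measured genes.

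**Figure D3:**
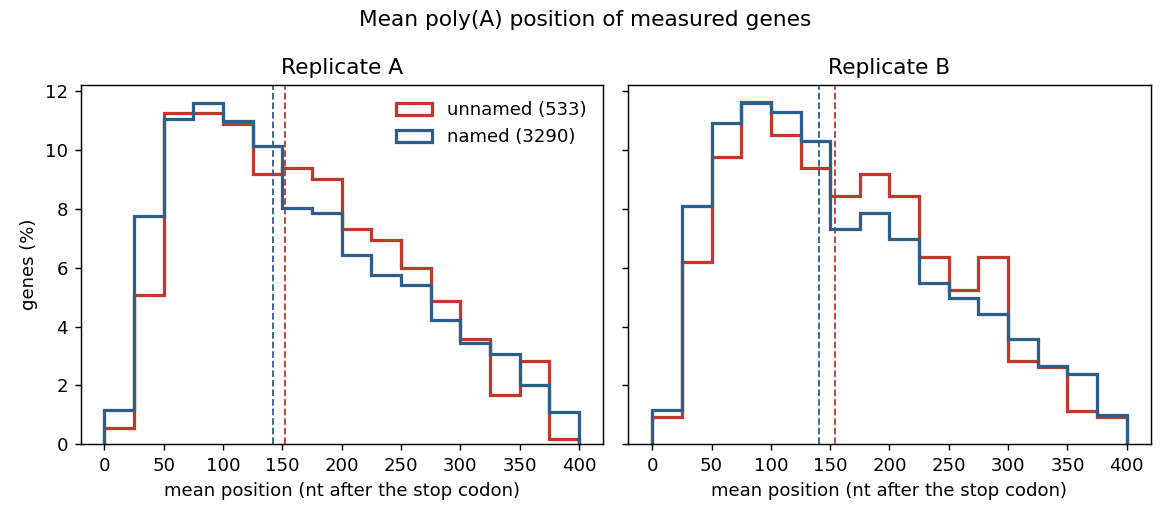
Share of measured genes (vertical axis, %) by mean poly(A) position in bins of 25 nt after the stop codon, for 533 unnamed and 3290 named genes in each replicate. Dashed lines mark the medians, 152 and 154 nt for unnamed genes against 142 and 140.4 nt for named genes in A and B.

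The difference in position was not even over read depth. When all measured genes were split into 10 equal groups by reads, unnamed genes had the higher median position in 5 groups and the lower in 5. Weighted by unnamed genes and averaged over the replicates, the difference within these groups was 10.2 nt. In the group with fewest reads the medians were 191 nt for 85 unnamed genes and 143 nt for 298 named genes, and in the group with most reads 155 nt for 24 unnamed genes and 93.2 nt for 359 named genes. That deepest group holds 131 genes of cytosolic ribosomal proteins, whose median was 53.6 nt, and the other 228 named genes in it had a median of 126 nt. With all ribosomal protein genes left out, an alternative chosen after seeing the data, the overall difference was 6.59 nt, and at a minimum of 200 reads it was also 6.59 nt.

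**Figure D4:**
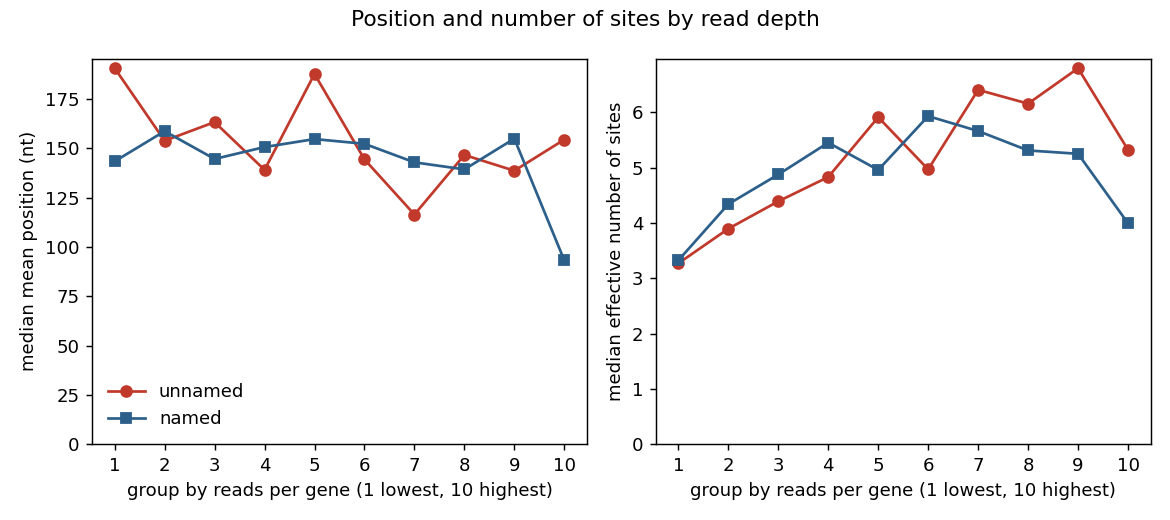
Median mean position (left, nt after the stop codon) and median effective number of sites (right) of measured unnamed and named genes in 10 equal groups by reads per gene, from fewest to most. The 2 sets cross repeatedly for position, and for sites the unnamed genes lie below in groups 1 to 4 and 6 and above in groups 5 and 7 to 10.

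Position also varied with the room downstream. The next coding gene lay a median of 628 nt beyond the stop codon for unnamed genes, against 521 nt for named genes, and 526 against 494.5 nt among measured ones. Unnamed genes followed by a gene on the same strand (tandem, 218 measured) had a median position of 177 nt in A and 172 nt in B, against 161 and 158 nt for 1370 named ones. Unnamed genes facing a gene on the other strand (convergent, 309 measured) had 141 and 142 nt, against 131 and 132 nt for 1920 named ones. Over 5 equal groups by distance to the next gene, from least room to most, the median positions of unnamed genes in A were 109, 141, 152, 196 and 192 nt, against 92.4, 122, 151, 193 and 195 nt for named genes. In B they were 111, 144, 161, 184 and 188 nt, against 91.1, 119, 152, 194 and 196 nt. Unnamed genes had the higher median in the 3 groups with least room in both replicates, the higher in A and the lower in B in the fourth group, and the lower in both in the fifth. The difference within these groups, weighted by unnamed genes and averaged over the replicates, was 6.56 nt, a comparison chosen after seeing the data.

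Against the RefSeq annotation, the most used site of the 358 measured unnamed genes with an annotated 3' end within 400 nt lay at a median of -35.5 nt from that end, against -36 nt in the 2451 named ones, where negative values are upstream. It was within 10 nt of the end in 82 unnamed genes (22.9%), against 604 named genes (24.6%), and past the end in 57 (15.9%), against 407 (16.6%). For 144 of 527 measured unnamed coding genes (27.3%), against 741 of 3290 named genes (22.5%), the annotated end lies past 400 nt, where it cannot be seen. Of the 117 unnamed coding genes with no annotated 3' UTR, 25 were measured (21.4%), at positions from 48.7 to 363 nt with a median of 135 nt, against 98 of 265 named ones (37.0%) with a median of 127 nt. The one with most reads, named after its value was seen, was SPAC806.11, uncharacterized, with 20450 reads in A and 15541 in B and mean positions of 155 and 152 nt.

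The unnamed genes with the lowest and highest positions, among those whose replicates differed by at most 10 nt, were these. SPBC1778.07, a predicted carnosine N-methyltransferase, had 2190 reads in A and 1704 in B and a mean position of 16.7 and 16.6 nt, with 79.7% and 79.6% of the reads at 13 nt. SPBC19C7.11 encodes a chloride channel of the ClC family. It followed at 25.01 and 22.01 nt, with 1214 and 590 reads. The uncharacterized SPBC1711.15c lay at 24.7 and 22.9 nt, on 448 and 130 reads. Its annotated 3' end lies 788 nt after the stop codon, outside the measured window. Sites of SPBC1711.15c past the window, if used, were therefore not counted. SPAC29B12.13, a predicted enzyme that joins formaldehyde to glutathione, lay at 25.9 and 21.8 nt. In all 4 the next gene is convergent, from 258 to 876 nt away. Most genes share this arrangement, with 309 of 527 measured unnamed coding genes convergent, against 1920 of 3290 named ones.

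At the far end, SPCC24B10.06, uncharacterized, had 416 and 561 reads at a mean position of 378 and 383 nt. SPAC27F1.10 lay at 375 and 379 nt on 64 and 52 reads, close to the minimum. SPCC338.06c, which RefSeq names hsp20, a small heat shock protein of the kind that binds unfolded proteins, lay at 373 and 378 nt with 423 and 396 reads. SPAC25B8.12c, a predicted nucleotide-sugar phosphatase, had 11196 and 5070 reads and lay at 375 and 371 nt. The annotated 3' ends of these 4 genes lie 772, 525, 498 and 561 nt after the stop codon, so that their sites past 400 nt, if used, were not counted. Nearest the median were SPAC2F3.18c, similar to ribonuclease kappa, at 153 and 156 nt, and SPAP14E8.05c, uncharacterized, at 157 and 151 nt.

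Profiles of unnamed genes were about as dispersed as those of named genes. The sign of the small difference changed with the read minimum, with grouping by reads, with the measure and with merging of the replicates. The median effective number of sites was 4.73 in A and 4.30 in B for unnamed genes, against 4.96 and 4.42 for named genes, a difference of -0.175 ± 0.0791 (SD, n = 2). Within 10 groups by reads it was 0.146 in the other direction, and 0.143 with the replicates merged. At a minimum of 200 reads it was 0.285, also in that other direction, and 1.21 at 1000 reads, a minimum chosen after seeing the data. There, 132 unnamed genes had medians of 6.41 and 5.83 sites, against 4.99 and 4.83 for 1219 named genes. The width that holds the reads from the 10th to the 90th percentile had a median of 65 and 61 nt in unnamed genes, against 58 and 57 nt in named genes. A width of 0 nt in both replicates was found for 13 unnamed genes (2.44%), against 118 named genes (3.59%), beside 3.43% of all. The most used position held 43.7% and 44.4% of the reads of the median unnamed gene, against 44.0% and 45.8% for named genes.

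The fewest sites among unnamed genes with matching replicates were found for SPBC1289.14, annotated as adducin, a protein of the membrane skeleton in animals. All of its 163 reads in A and 98.9% of its 464 reads in B lay at 66 nt. The uncharacterized genes SPCC663.15c, SPAC25B8.08 and SPBC21B10.02 followed, with 1.20 to 1.24 effective sites as means of the replicates. The most sites, under the same limit of 10 nt between replicates, were found for SPAC27E2.11c, annotated as a protein specific to Schizosaccharomyces, with 15.9 effective sites in A and 17.9 in B from 7839 and 6225 reads. Its most used position, 262 nt in A and 237 nt in B, held 16.9% and 13.4% of the reads. SPBP23A10.11c, a predicted 1,3-beta-glucanase, an enzyme that cuts the main glucan of the cell wall, had 16.7 and 14.0 sites within 52 and 47 nt. SPBC8D2.18c, adenosylhomocysteinase, which clears the by-product of methylation reactions, had 16.7 and 13.8 sites and a width of 193 and 192 nt. SPBC4.06, an acid phosphatase, had 14.3 and 13.4 sites. The uncharacterized SPCC1235.01, whose replicates differed by 17.7 nt and which was therefore not ranked, had 21.7 and 20.3 sites. At similar numbers of sites, the width was thus much smaller in SPBP23A10.11c than in SPBC8D2.18c.

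Over all measured genes, replicates differed more for unnamed genes, but not at every depth. The median absolute difference in mean position was 6.97 nt for unnamed genes, against 4.91 nt for named genes, and 317 of 533 unnamed genes (59.5%) were within 10 nt, against 67.2% of named genes. At fewer than 500 reads in the shallower replicate the medians were 10.9 and 10.2 nt for unnamed and named genes, and at 5000 reads or more 1.43 and 0.621 nt, over 34 unnamed and 452 named genes. Among the 10 groups by reads, unnamed genes differed less in groups 1 (11.5 against 15.0 nt), 2 (12.6 against 13.6 nt) and 7 (4.04 against 4.10 nt). The largest differences were those of shallow genes. SPAC652.01, of the BC10 family, lay at 157 nt in A and 329.9 nt in B on 180 and 100 reads. SPCC1672.09, a predicted lipase of neutral lipids, lay at 108 and 267 nt on 119 and 66 reads, and the pseudogene SPCC18B5.02c at 65.1 and 208 nt on 65 and 72 reads. In each, the most used position itself lay elsewhere in the other replicate, for SPAC652.01 at 121 nt in A and at 383 nt in B.

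Some unnamed genes had their reads inside the open reading frame (ORF). Over the 554 unnamed and 3383 named genes with at least 50 ORF plus window reads in each replicate, the median ORF share was 0.353% in A and 1.08% in B for unnamed genes, against 0.439% and 0.964% for named genes, so its order differed between replicates. More than 50% of the reads lay in the ORF for 15 unnamed genes in A (2.71%) and 21 in B (3.79%), against 59 (1.74%) and 69 (2.04%) named genes, a difference of 1.36 ± 0.557 percentage points (SD, n = 2). Within 10 equal groups by ORF plus window reads it was 0.576 points. In both replicates this held for 13 unnamed genes (2.35%), against 44 named genes (1.30%), beside 1.45% of all. A gene with few window reads passes the minimum only through its ORF reads, the value scored here. These shares therefore depend on how the minimum was set, and no excess of ORF reads in unnamed genes follows from them. No ORF read was found for 30.0% and 17.9% of unnamed genes, against 16.9% and 10.4% of named genes. This share was not matched for reads or for coding length. Measured unnamed genes had fewer window reads, with medians of 424 and 369, against 701.5 and 596. Their coding sequences were also shorter, with a median of 996 nt, against 1212 nt.

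The 13 unnamed genes with most of their reads in the ORF in both replicates all had fewer than 50 window reads in a replicate, and 8 are annotated as uncharacterized. Their coding lengths ran from 243 to 2304 nt and their ORF reads from 30 to 371 per replicate. The examples that follow were chosen after their values were seen. SPCC4F11.05, with a coding length of 243 nt, had 234 ORF reads in A and 371 in B beside 43 and 13 window reads. SPAC24B11.14 had 165 and 132 ORF reads beside 1 and 14 window reads. SPAC4H3.16, whose convergent neighbour ends 33 nt away, had 122 and 251 ORF reads beside 33 and 0 window reads. For these genes the window after the stop codon held few of the reads assigned to them.

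Among measured unnamed genes, the highest ORF shares were those of SPAC16A10.01 (73.7% in A and 41.5% in B), SPCC1494.08c (44.1% and 67.0%), SPCC1235.01 (42.2% and 52.0%) and SPAC9G1.08c (25.1% and 67.2%), the last a predicted phospholipase and the others uncharacterized. Only SPCC1235.01 was deep, with 2800 ORF reads beside 3836 window reads in A and 4369 beside 4027 in B. Its 95% Wilson intervals were 41.0% to 43.4% in A and 51.0% to 53.1% in B, so that even here the replicates differed by more than counting error. Summed over genes, 1.03% and 1.34% of the reads of unnamed genes lay in ORFs, against 0.170% and 0.210% for named genes. Such sums are weighted towards the genes with most reads and do not describe the typical gene. The median share per gene was 0.353% and 1.08% for unnamed genes, against 0.439% and 0.964% for named genes. SPCC1235.01 alone gave 28.1% and 32.3% of the ORF reads of unnamed genes, and without it the sums were 0.744% and 0.918%.

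By annotated product, proteins of unknown function were the largest group, with 367 of the 903 unnamed genes. Of these, 190 were measured (51.8%), and all 367 had median reads of 69 in A and 75 in B. The 190 measured genes had median positions of 158 and 167 nt. Products with the same words occur in only 9 named genes, so the groups below are set against named genes where both have members. The groups were formed by words in the product text and may overlap. Some members are therefore of another kind, such as the electron carrier protein SPAC25B8.18 among membrane transporters. Membrane transporters, 80 unnamed genes of which 42 were measured, ended at medians of 177 and 175 nt, against 192 and 194 nt for 96 measured named transporters. The one with most reads was SPBC1703.13c, an inorganic phosphate transporter, with 15697 and 11770 reads, of which 78.9% and 78.6% lay at 108 nt. Oxidoreductases (42 of 64 measured) had medians of 144 and 129 nt, against 168 and 171 nt for 147 named ones, and were led by SPBC30D10.05c, annotated as sepiapterin reductase, an enzyme of biopterin synthesis in animals, with 9540 and 9239 reads. Unnamed genes of both groups thus ended nearer the stop codon than their named counterparts, unlike unnamed genes as a whole. The measured share was 52.5% of unnamed transporters, against 72.7% of named ones, and 65.6% against 86.0% for oxidoreductases. It was lower for unnamed genes in all groups with members except genus-specific and mitochondrial products.

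Transferases, kinases and synthases (56 of 80 measured) ended at medians of 183 and 171 nt, against 150.2 and 146 nt for 567 named ones. SPCC1620.06c, a ribose-phosphate pyrophosphokinase, which makes the phosphoribosyl donor of nucleotide synthesis, led them with 11108 and 10719 reads at mean positions of 219.8 and 215 nt. Hydrolases (45 of 69 measured) lay at 127 and 144 nt, against 141 and 137 nt for 243 named ones, so their order changed between replicates. Their leading gene, SPAC26A3.11, the mitochondrial omega-amidase, had 16750 and 23110 reads and a mean position of 108 and 109 nt. It also led the 5 unnamed genes with mitochondrial products, all of them measured. Of 101 named genes with such products, 84 were measured. Transcription factors and zinc finger proteins (18 of 30 measured) lay at 160.3 and 163 nt, against 168 and 170.4 nt for 75 named ones. SPCC320.03, a transcription factor with 1769 and 1676 reads, had sites across 350 nt of the window in both replicates.

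Unnamed genes with products in translation and the ribosome (15 of 17 measured) ended at medians of 126 and 127 nt, against 98.7 and 97.3 nt for 433 named ones, which include the ribosomal proteins. Their median reads, 651 and 430, were also far below the 3235 and 2858 of all 455 named genes in the group. RNA-binding proteins and helicases (9 of 12 measured) had 114 and 117 nt, against 130.4 and 124 nt for 83 named ones, and SPCC126.11c, with an RNA recognition motif, led them with 4652 and 3097 reads. Membrane and cell surface proteins (16 of 28 measured) had 132 and 131 nt, against 178 and 178 nt for 92 named ones. SPBC887.17, a transmembrane transporter with 6243 and 5275 reads, held 61.0% and 55.6% of them at 36 nt. A further 3 unnamed genes, of which 2 were measured, were annotated as specific to the genus, and 181 fell in no group, 115 of them measured. The difference between unnamed and named genes thus ran in opposite directions in different product groups.

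**Figure D5:**
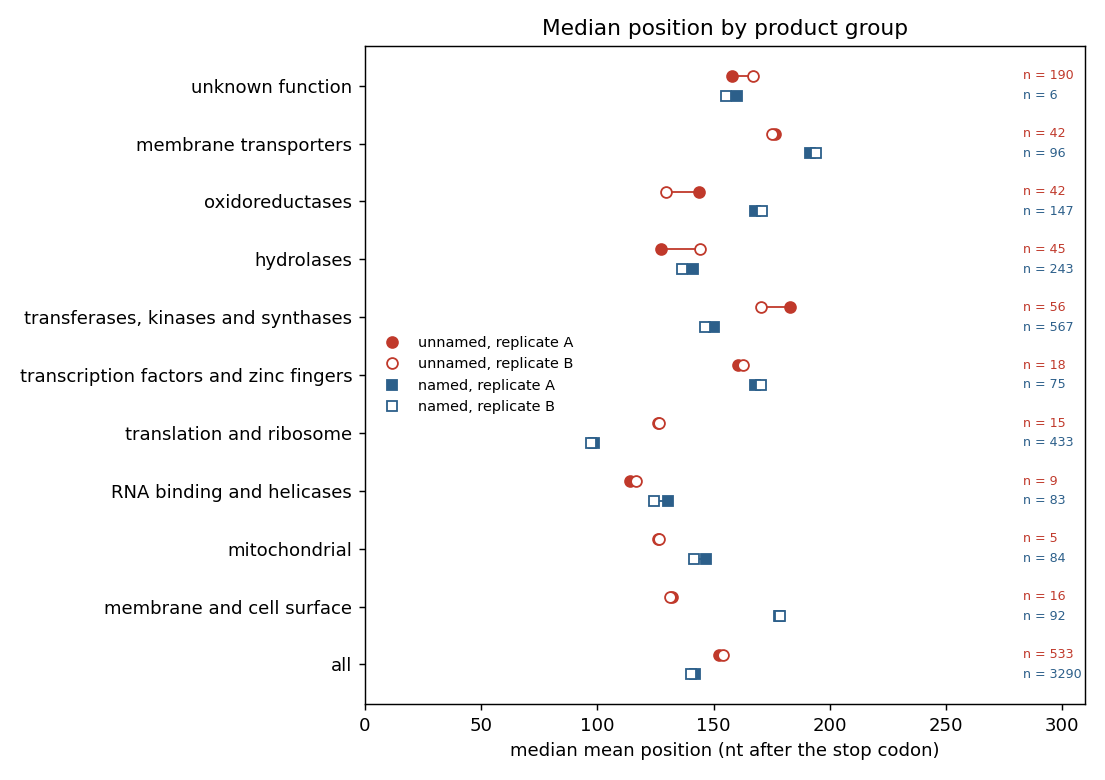
Median mean position (horizontal axis, nt after the stop codon) of measured unnamed genes (circles, upper) and named genes (squares, lower) in each product group with at least 5 measured unnamed genes, and in all genes, with filled symbols for replicate A and open ones for B. Unnamed membrane transporters lie at 177 and 175 nt against 192 and 194 nt for named ones, and unnamed transferases, kinases and synthases at 183 and 171 nt against 150.2 and 146 nt.

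Of the 26 unnamed genes to which RefSeq gives a symbol, 18 were measured, where 74.3% of all genes compared were. The deepest were cir2 (SPAC20G8.04c), an oxidoreductase that passes electrons from flavoproteins to ubiquinone, with 1868 reads in A and 1373 in B, and rpf1 (SPAC4F8.04), a Brix domain protein of ribosome assembly, with 1606 and 1654 reads. Of the 23 unnamed pseudogenes, 5 were measured and 9 had no read in either replicate. Among the 9 named pseudogenes, 0 were measured and 5 had no read. Over all genes compared, 74.3% were measured and 3.95% had no read. SPBPB21E7.08 was the deepest pseudogene, with 918 reads in A and 1012 in B and mean positions of 56.5 and 68.7 nt. Its reads were spread over 10.8 and 8.65 effective sites. These genes were chosen after their values were seen.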

How the data were processed

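Per the submitters' processing notes, Bowtie was among the tools used. Its version and settings, the treatment of reads with several matches and the build were not given in the sources used here. The authors deposited a table for each replicate and a merged one. Per the file headers these hold read signal for the most used position, for positions 1 to 400 after the stop codon and for the ORF. They also hold a profile, in percent of its own highest position, and the percent of reads in the ORF, both made by the authors. Signal values as deposited were whole multiples of 0.930 in replicate A and 0.869 in replicate B, within a tolerance of 0.1 reads, for 100% of values at the most used position, and were divided by these steps to give reads. Deposited weighted positions, in nt, were within 0.0950 nt of the recomputed ones.

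Replicate A held 50977367 window reads and replicate B 54749219. No molecular identifiers are named in the sources used here, so reads were not taken as molecules, and intervals and floors cover counting error only. Genes with at least 50 window reads in each replicate were called measured. Values are given per replicate, with the mean and SD over the 2 replicates, and no test was run, because no conditions were compared and genes are not replicates. Gene classes, neighbours and sequence came from RefSeq ASM294v3. Genes named in the text are the 6 with most reads, the 4 lowest and 4 highest positions, the 2 nearest the median, the 4 with fewest and 4 with most sites (replicates within 10 nt), the 3 largest replicate differences, the 4 highest ORF shares and the leading gene of each of 12 product groups, of which dubious products had no member. Members, lists and comparisons were chosen with earlier results of these data known. Measures were tested on simulated profiles with Python 3.11.15, numpy 2.4.6 and pandas 2.3.3. Figures were drawn with matplotlib 3.10.9. The alternatives covered replicates, read minimums, gene classes, depth and the measures.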

Additional observations from a re-analysis of the deposited data

How the results depend on the processing

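In replicates A and B alone, unnamed minus named, the share of genes with at least 50 reads differed by -17.6 and -17.8 percentage points, the position by 10.2 and 13.9 nt, the number of sites by -0.231 and -0.119 and the share with most reads in the ORF by 0.964 and 1.75 points, and the ratio of reads was 0.319 and 0.335. The share of genes with at least 50 reads differed by -16.8 percentage points over coding genes, -15.0 at 20 reads, -21.2 at 200 reads and -12.9 away from chromosome ends and repeats. The ratio of median reads was 0.350 over coding genes, 0.354 without ribosomal protein genes, 0.473 over genes with reads in both replicates and 0.407 away from ends and repeats. The difference in median position was 9.46 nt at 20 reads, 6.59 nt at 200 reads, 6.59 nt without ribosomal protein genes and 6.56 nt within groups by distance to the next gene. The difference in the number of sites was -0.269 at 20 reads. It turned to 0.285 at 200 reads, 1.21 at 1000 reads, 0.146 within 10 groups by reads, 0.143 in the merged table and 0.50 when positions with at least 10% of the top level were counted, where A gave 1 and B gave 0. The difference in the share of genes with most reads in the ORF was 0.576 percentage points within 10 groups by reads. The cause of these changes was not tested. The comparisons away from ends and repeats, at 1000 reads, by distance to the next gene and, for position, without ribosomal protein genes were chosen after seeing the data. Of 39 alternatives, 5 changed the direction of a replicate mean, all for the number of sites. No paired analysis was possible because the samples form a single group. With 2 libraries, the SD is itself imprecise, sites past 400 nt are not seen, and the replicates of genes in the group with fewest reads differed by medians of 11.5 nt (unnamed) and 15.0 nt (named).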
